A study of Homo sapiens with 9 samples.

Results

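The cadherins and protocadherins of HK-1 cells were read from every probe of the array whose gene name was CDH followed by a number or began with PCDH. This rule used the names alone and took 103 probes for 85 gene names, out of 25378 probes for 19402 names. The genes were ordered by family: 6 probes for type I classical cadherins, 16 for type II classical cadherins, 6 for other numbered cadherins, 19 for non-clustered protocadherins, and 12, 22 and 22 for the PCDHA, PCDHB and PCDHG clusters. Of the names, 83 were current symbols, and PCDHB17 and PCDHB18 were not.

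HK-1 is a human cell line from nasopharyngeal carcinoma (NPC), a tumor of the nasopharyngeal epithelium, and it was grown here as a monolayer. Cells were exposed to 10 or 20 µM baicalein, a flavonoid from the roots of Scutellaria baicalensis, for 24 h and were kept in full medium for 24 h more before harvest. The sample labels call the control cells non-treated, whereas the methods give DMSO, the solvent of baicalein, as the control. Total RNA was copied into Cy3-labelled cDNA and hybridised to 9 single-colour whole-genome arrays, 3 per group, described as biological replicates.

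Cadherins are calcium-dependent adhesion proteins of the cell surface. Classical cadherins hold neighboring cells together at adherens junctions through their outer repeats and bind β-catenin and p120-catenin with their inner tail. E-cadherin (CDH1) is the main classical cadherin of epithelia, and its replacement by N-cadherin (CDH2) is a known feature of carcinoma cells that become motile. Protocadherins have similar outer repeats but lack the catenin-binding tail. The clustered ones lie in a row on 1 chromosome, where each first exon has its own promoter, and they are best known for giving neurons individual surface identities.

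For each spot the scanner gave a raw intensity, a local background and their difference, the net intensity. The detection bound of an array was the 95th percentile of net intensity over its 8926 spots without a probe, and a probe beyond it was taken to stand above the empty spots. The bound ran from 1266 to 1430 in control cells, from 1302 to 1519 at 10 µM and from 1303 to 1823 at 20 µM. Groups were compared on log2 raw intensity, centred on the median of each array and quantile-normalized, by limma across all named probes. Local background made up 86.5% to 88.4% of raw intensity, by the median over the gene probes of each array. A difference on this scale could be smaller or larger than the one on net intensity normalized in the same way. At 10 µM, 1 PCDH10 probe differed by 0.18 on raw and 0.46 on net intensity, and 1 CDH18 probe by -0.10 and -0.025. With 3 arrays against 3, an exact permutation test of a single probe cannot give a p below 0.1, and the p-values from limma measure the spread between these arrays. In bulk RNA, fewer cells with a transcript and less of it per cell cannot be told apart.

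Replicate 2 of 20 µM stood apart from the other arrays, and this touched several protocadherin probes. Its log2 net intensity correlated with that of the other 8 arrays at 0.622 to 0.696 across probes, and replicate 1 of 20 µM at 0.622 to 0.812, while the remaining 7 arrays correlated with each other at 0.859 to 0.911. On replicate 2 of 20 µM, 265 of 653 dim spots listed directly before a bright spot (a net intensity of at least 5000 by the median of the other arrays) were at least 3-fold above their median on the other arrays, which is 40.6%, against 0% to 0.663% on the other 8 arrays. This share was 71.9% among spots from 19601 of 39200 onward in the list and 5.52% among earlier ones, and for spots listed directly after a bright spot it was 0.46%. What produced this was not tested. For the cadherin and protocadherin probes whose fitted differences from control at 20 µM are described below, the difference without that array is given as well. Exceptions are PCDH9 and the second probes of PCDH1 and CDH7.

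Most of the family could not be told from empty spots. Of the 103 probes, 75 (72.8%) were below the bound on all 9 arrays, 22 were above it on some arrays and 6 (5.83%) were above it on all of them. Over all named probes the shares were 73.1% below on every array and 3.15% above on every array. The 6 probes were those of CDH7, CDH10 and CDH18 among the type II cadherins, PCDH15 among the non-clustered protocadherins, PCDHA10 and PCDHB12. In the array files these probes are PH_hs_0035566, PH_hs_0005120, PH_hs_0003691, PH_hs_0012755, PH_hs_0045518 and PH_hs_0041002, and the genes lie on chromosomes 18, 5, 5, 10, 5 and 5. No type I cadherin, other numbered cadherin or PCDHG probe was among them. By array, 14 to 16 of the 103 probes (13.6% to 15.5%) were above the bound in control cells. At 10 µM 9 or 10 were (8.74% to 9.71%), and at 20 µM 10 to 15 (9.71% to 14.6%). Over all named probes these shares were 9.07% to 17.4% in control cells, 8.8% to 8.95% at 10 µM and 6.95% to 8.07% at 20 µM. A bound at the 95th percentile is passed by 5% of the empty spots themselves.

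**Figure D1:**
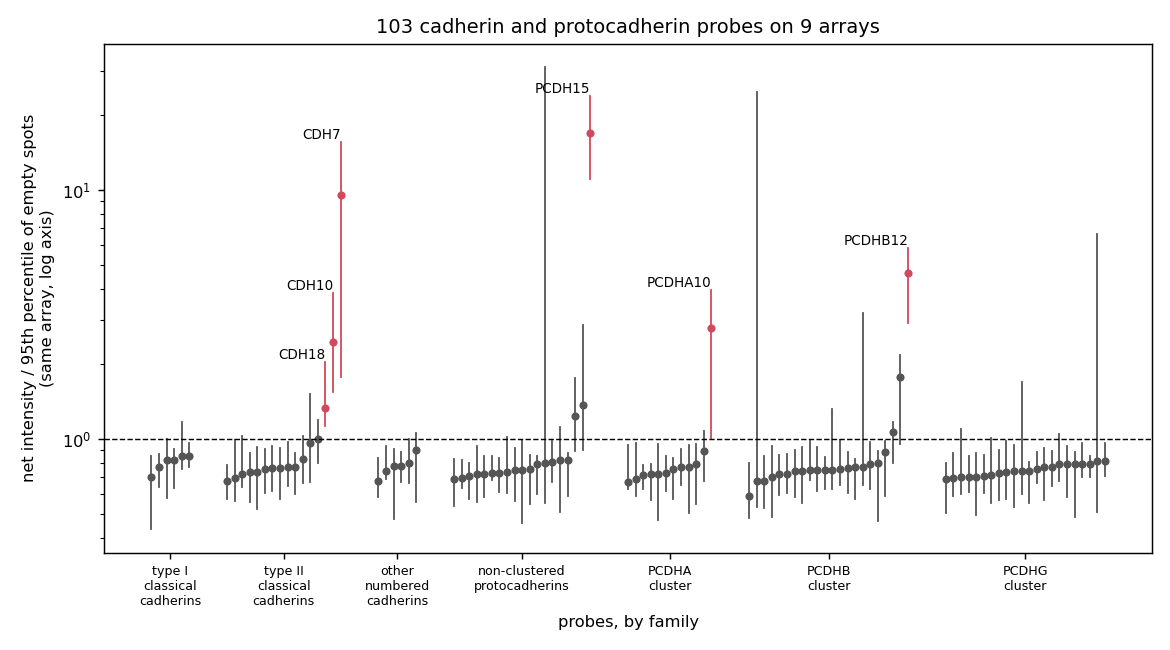
Net intensity of each of the 103 probes divided by the 95th percentile of the empty spots of the same array, on a log axis, by family. Points are medians over 9 arrays, lines run from the lowest to the highest array, the dashed line is the bound, and the 6 probes above it on all 9 arrays are named in red; long grey lines that start below the bound belong to probes raised on 1 or 2 arrays.

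Among type I classical cadherins, the E-cadherin probe had net intensities of 1378, 1138 and 1195 in control cells, 1187, 1217 and 1243 at 10 µM and 1402, 1038 and 1159 at 20 µM. The N-cadherin probe gave 1421, 1077 and 1157 in control cells, 1305, 1234 and 1108 at 10 µM and 1050, 1023 and 1113 at 20 µM. For CDH3, which encodes the P-cadherin of basal epithelial cells, the values were 1217, 936 and 797, then 1061, 915 and 1014, and then 788, 994 and 1162. All 3 probes lay below the bound on every array, so neither a level nor a loss of these cadherins was detectable here. Their differences in mean log2 raw intensity were 0.0055 for CDH1, -0.0019 for CDH2 and 0.16 for CDH3 at 10 µM, with SEs of 0.059, 0.042 and 0.11. At 20 µM they were 0.036, -0.050 and 0.072, with the same SEs, and 0.059, -0.032 and -0.035 without replicate 2, which turned the direction of CDH3, and none had an unadjusted p under 0.05 in limma. The CDH2 values at 20 µM, although all lower than in control cells on the normalized scale, were thus within the range of empty spots. Both probes of CDH4, the R-cadherin, were also below the bound on all arrays, and that of CDH15, the M-cadherin of muscle, passed it on 1.

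The type II classical cadherins included the 3 numbered cadherins above the empty spots throughout. CDH7, a cadherin known from the developing nervous system, had net intensities of 17257, 20709 and 14727 in control cells, 12962, 12525 and 12911 at 10 µM and 9155, 2302 and 13117 at 20 µM. The means were 17564 ± 3003, 12799 ± 239 and 8191 ± 5472 (SD, n = 3). On net intensity neither dose overlapped with the control, and the lowest value by far was that of replicate 2 of 20 µM. The spot listed directly before it, a CHRNB1 probe, read 13163 on that array and 963 to 1127 on the other 8. On log2 raw intensity CDH7 differed by 0.0033 (SE 0.20) at 10 µM, where the groups overlapped, and by -0.56 (SE 0.20) at 20 µM, where they did not, with an unadjusted p of 0.018 and an adjusted p of 0.9999 in limma. Without replicate 2 of 20 µM the second difference was -0.28, with an unadjusted p of 0.021 in limma. In the 3 scan batches, each holding 1 array of every group, it was -0.34, -1.19 and -0.14. The difference at 20 µM thus kept its direction within every scan batch and its unadjusted p stayed under 0.05 in limma with any 1 array left out, while its size rested in part on replicate 2. The call was lost with the methods' t-test in place of limma, and with normexp, a model-based background correction, where the unadjusted p was 0.063 in limma.

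CDH10, also a cadherin of the nervous system, gave 4219, 2752 and 4529 in control cells, 5868, 3340 and 3315 at 10 µM and 3757, 2009 and 3284 at 20 µM. CDH18, known from the brain, gave 2897, 1733 and 2147, then 1910, 2055 and 2046, and then 2058, 1517 and 1831. For both probes the 3 groups overlapped. Their differences in log2 raw intensity were 0.015 (SE 0.096) and -0.10 (SE 0.093) at 10 µM, and -0.16 and -0.061 at 20 µM, none with an unadjusted p under 0.05 in limma. Without replicate 2 of 20 µM the latter pair was -0.15 and -0.14, and without replicate 1 of 20 µM the CDH18 difference was 0.055, so its direction rested on 1 array. Of the other type II probes, those of CDH12 and CDH24 were each above the bound on 4 arrays. The CDH24 probe passed it in all 3 control arrays, at 1702, 1383 and 1457, whereas the 20 µM arrays, at 1650, 1235 and 1377, were each under their own bounds of 1823, 1303 and 1378. These groups overlapped in value, and no fold is given.

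Other numbered cadherins, which include the T-cadherin CDH13 without a transmembrane segment and CDH23 of the inner-ear hair bundle, were below the bound on nearly all arrays: 5 of 6 probes never passed it and 1 of the CDH23 probes passed it on 2. CDH16, the kidney cadherin, had net intensities of 1270, 992 and 1136 in control cells and 1111, 896 and 991 at 10 µM. On the normalized raw scale its groups did not overlap, at 0.043, 0.065 and 0.086 against -0.075, -0.089 and -0.086, a difference of -0.15 (SE 0.054) with an unadjusted p of 0.020 in limma, a call lost without replicate 3 of the control and with median centring alone, cyclic loess (a smoothed scaling between pairs of arrays), normexp, net intensity or the authors' table of processed values. Both groups were below the bound, so this is a shift within the range of empty spots and not a measured level of CDH16.

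Among non-clustered protocadherins PCDH15, part of the tip link of hair cells, read 27914, 31652 and 25616 in control cells, 20427, 22446 and 22833 at 10 µM and 20243, 19952 and 22419 at 20 µM. The means were 28394 ± 3047, 21902 ± 1292 and 20871 ± 1348 (SD, n = 3), and on net intensity all 6 treated arrays were below all 3 control arrays. On log2 raw intensity after normalization the groups overlapped, and the differences were -0.18 (SE 0.086) at 10 µM, with an unadjusted p of 0.063 in limma, and -0.13 at 20 µM, with 0.17, or -0.11 without replicate 2 of 20 µM. With the replicate number as a block, the p at 10 µM was 0.041 in limma, still unadjusted. With cyclic loess (a smoothed scaling between pairs of arrays) it was 0.031, and without replicate 1 or 2 of the control 0.043 or 0.026. Without replicate 3 of the control the difference was -0.070, with an unadjusted p of 0.29 in limma. In the 3 scan batches the difference at 10 µM was -0.18, 0.0049 and -0.36. With the same normalization applied to net intensity it was -0.16, and with median centring alone on raw intensity -0.35. The size of the PCDH15 difference thus moved with the scaling between arrays. The other PCDH15 probes, none above the bound on all arrays, differed by 0.0055, -0.065 and 0.017 at 10 µM.

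PCDH1, a protocadherin found in airway epithelium, was above the bound on 7 arrays. It gave 4114, 2092 and 1989 in control cells, 2123, 1252 and 1844 at 10 µM and 1650, 1389 and 1648 at 20 µM. The 20 µM values were all lower than the control values, and those at 10 µM overlapped with both. On log2 raw intensity PCDH1 was lower by -0.22 (SE 0.084) at 20 µM, with an unadjusted p of 0.023 and an adjusted p of 0.9999 in limma, and by -0.26 without replicate 2 of 20 µM. In the scan batches this difference was -0.44, -0.013 and -0.22. This call was lost without replicate 1 or 3 of the control or replicate 1 of 20 µM, and with cyclic loess, normexp or the methods' t-test. The second PCDH1 probe was below the bound on all arrays and differed by 0.0014 at 20 µM. PCDH9 was also above the bound on 7 arrays and had overlapping groups on the normalized raw scale. On net intensity its 20 µM values of 1624, 1159 and 1680 were all below the control values of 2497, 1717 and 1983. After normalization that difference was -0.35, with an unadjusted p of 0.042 and an adjusted p of 0.8654 in limma. On log2 raw intensity PCDH9 differed by -0.089 (SE 0.060) at 20 µM, with an unadjusted p of 0.17 in limma. The lowest of its 20 µM values was that of replicate 2, and how far the difference rests on that array was not tested.

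PCDH8 and PCDH10, protocadherins of the δ2 group that regulate cell movement in embryos, had the lowest unadjusted p among the higher probes at 10 µM, although neither passed 0.05 on log2 raw intensity. The PCDH10 probe read 1070, 844 and 866 in control cells, 1393, 1132 and 1232 at 10 µM and 1026, 1026 and 1023 at 20 µM. On net intensity its 10 µM values were all higher than the control values, and every value was under the bound. Its difference at 10 µM was 0.18 (SE 0.092, unadjusted p of 0.083 in limma) on log2 raw intensity and 0.46 (unadjusted p of 0.0010, adjusted p of 0.9993 in limma) on normalized net intensity. The second PCDH10 probe differed by -0.13 on normalized net intensity. PCDH8 differed by 0.21 (SE 0.10) with overlapping groups, and the probe of PCDHB16 that was next in the same order by 0.11 (SE 0.059).

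PCDH12, known from endothelium, had the largest positive fitted difference of all 103 probes at 20 µM, 0.89 (SE 0.56), and it came from 1 array. Its net intensity was 40557 on replicate 2 of 20 µM and 949 to 1404 on the other 8 arrays. The spot listed directly after it, a DNAI2 probe, read 33614 on that array and 38452 to 45936 on the others. Without that array the PCDH12 difference was -0.0009. PCDHB14 showed the same arrangement, at 32214 on that array and 715 to 1150 elsewhere, with a following PITPNM1 spot at 37972. Its difference at 20 µM was 0.84 (SE 0.48) with all arrays and 0.087 without replicate 2, and the second PCDHB14 probe was below the bound throughout.

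**Figure D2:**
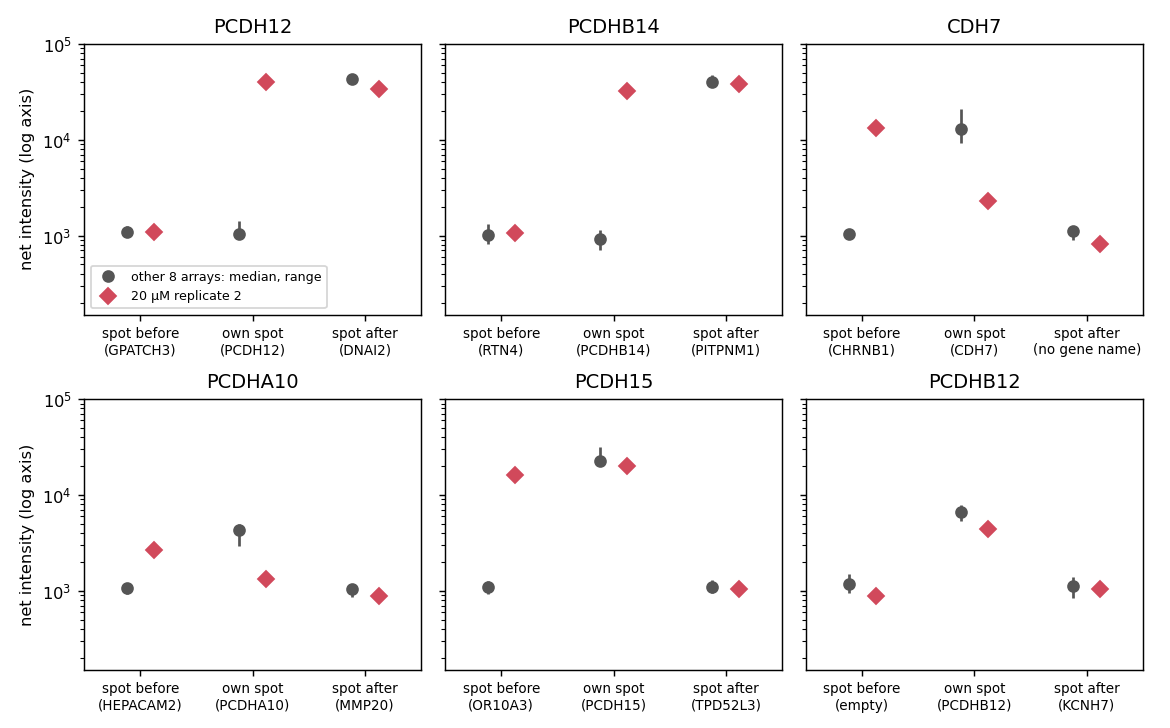
Net intensity, on a log axis, of 6 protocadherin and cadherin spots and of the spots listed directly before and after each, on replicate 2 of 20 µM (red diamonds) and on the other 8 arrays (grey median and range). On that array PCDH12 and PCDHB14 reached the level of the spot after them, and the spots before CDH7, PCDHA10 and PCDH15 were raised to 13163, 2692 and 16288; around PCDHB12 no neighbor was raised.

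Other probes that were at least 3-fold above the median of the remaining arrays had no bright neighbor. PCDHB2 read 5851 on replicate 1 of 20 µM and 944 to 1134 elsewhere, with neighboring spots at 1353 and 1338. PCDHGA11 read 8856 on replicate 2 of the control and 5802 on replicate 2 of 10 µM, which share a scan batch, and 812 to 1470 on the other 7 arrays. A rise on a single array occurred in 3 of 103 probes (2.91%), those of PCDH12, PCDHB14 and PCDHB2, and in 460 of all named probes (1.81%). At 20 µM the fitted differences from control were 0.53 for PCDHB2 and -0.52 for PCDHGA11. The raised array of PCDHB2 and the raised control array of PCDHGA11 enter these differences. Without replicate 2 of 20 µM, which was raised for neither probe, they were 0.79 (unadjusted p of 0.033 in limma) and -0.53. That omission does not show how far they rest on the raised arrays.

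The clustered protocadherins are known to share a short promoter element with a CGCT core. The stretches below show it for PCDHA10, PCDHB12, PCDHB14, PCDHGA1 and PCDHGA11, taken from the RefSeq promoter table of build GRCh38.p14, plus strand, with the letters GNCGCT in capitals and 16 bases on either side.
PCDHA10, chr5:140855839-140855876: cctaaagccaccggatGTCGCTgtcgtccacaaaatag
PCDHB12, chr5:141208641-141208678: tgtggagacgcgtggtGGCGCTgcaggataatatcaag
PCDHB14, chr5:141223261-141223298: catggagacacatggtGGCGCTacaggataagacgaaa
PCDHGA1, chr5:141330401-141330438: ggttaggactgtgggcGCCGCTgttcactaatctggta
PCDHGA11, chr5:141420970-141421007: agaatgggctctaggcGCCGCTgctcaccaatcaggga

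The letters lay 42, 62, 66, 97 and 65 bases before the annotated start of these genes, in that order. They were chosen after the promoters had been read. In the 250 bases before the start, GNCGCT was found on the gene's strand in 39 of 43 clustered protocadherins with a promoter entry (90.7%), in 4 of 12 numbered cadherins (33.3%), in 0 of 10 non-clustered protocadherins and in 26.6% of 27305 symbols. With both strands searched these shares were 90.7% for the clusters, 75.0% for the numbered cadherins, 40.0% for the non-clustered protocadherins and 41.5% for all symbols. A match of letters is a description of the sequence. PCDHA10 and PCDHB12 passed the bound on all arrays, whereas PCDHGA1 with the same letters passed it on none.

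In the PCDHA cluster, PCDHA10 was the single probe of 12 above the bound on all arrays, and 10 were above it on none. Its net intensity was 4793, 4435 and 5028 in control cells, 3964, 3614 and 4395 at 10 µM and 4175, 1314 and 2925 at 20 µM. All 6 treated arrays were below the 3 control arrays, and replicate 2 of 20 µM was barely above its bound of 1303. The spot listed before it, of HEPACAM2, read 2692 on that array and 934 to 1183 on the others. On normalized log2 raw intensity the control values were 0.52, 0.63 and 0.67, the 10 µM values 0.62, 0.58 and 0.47, and the 20 µM values 0.26, 0.17 and 0.40. At 20 µM PCDHA10 was thus below both other groups on every array, while 10 µM overlapped with the control. The difference was -0.33 (SE 0.070, unadjusted p = 7.5e-04 in limma) from control and -0.28 (unadjusted p = 0.0024 in limma) from 10 µM, with adjusted p of 0.9999 and 0.993. Without replicate 2 of 20 µM it was -0.28 from control, with an unadjusted p of 0.0030 in limma. The scan batches gave -0.26, -0.47 and -0.27, and the unadjusted p stayed under 0.05 in both comparisons with any 1 array left out. The call against control was lost with cyclic loess, where the difference was -0.15 (unadjusted p = 0.093 in limma), and with normexp (unadjusted p = 0.10 in limma). The call between the doses was lost with those, on net intensity and with the authors' table. On normalized net intensity the difference was -0.65 (unadjusted p = 0.048 in limma) with all arrays and -0.21 without replicate 2 of 20 µM, with an unadjusted p of 0.22.

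In the PCDHB cluster, PCDHB12 was above the bound on all arrays, with 7494, 6370 and 7024 in control cells, 6942, 6054 and 7874 at 10 µM and 5310, 4376 and 5598 at 20 µM. Mean net intensity was 6962 ± 564 (SD, n = 3), 6957 ± 910 and 5094 ± 639. Control and 10 µM overlapped on net intensity, and the 20 µM arrays were all lower than both. On log2 raw intensity the difference was 0.051 (SE 0.088) at 10 µM and -0.16 at 20 µM, the latter with an unadjusted p of 0.099 in limma and with overlapping groups, or -0.17 without replicate 2 of 20 µM. PCDHB1 was above the bound on 8 arrays, PCDHB15 on 6, and both had overlapping groups in the comparisons with control. PCDHB13, below the bound on every array, was lower by -0.16 (SE 0.057, unadjusted p = 0.020 in limma) at 10 µM and did not overlap with the control. This call was lost without replicate 2 of the control or replicate 1 of 10 µM, and under the same 5 alternatives as that of CDH16.

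In the PCDHG cluster no probe was above the bound on all arrays, and 17 of 22 were above it on none. PCDHGA1, with net intensities of 1256, 863 and 1112 in control cells, 1022, 908 and 797 at 10 µM and 1105, 942 and 1141 at 20 µM, had the lowest unadjusted p of the family at 10 µM. On normalized log2 raw intensity it read 0.046, 0.067 and 0.020 in control cells and -0.11, -0.080 and -0.14 at 10 µM. These groups did not overlap, and the difference of -0.15 (SE 0.044, unadjusted p = 0.0064, adjusted p = 0.9999 in limma) was -0.15, -0.15 and -0.16 in the scan batches. The call was lost with normexp, on net intensity and with the authors' table. At 20 µM the probe was higher than at 10 µM by 0.12 (unadjusted p = 0.022 in limma), or by 0.10 without replicate 2 of 20 µM, where the unadjusted p was 0.078. All of these values were within the range of empty spots. PCDHGB7, also below the bound throughout, read 1067, 982 and 1186 at 10 µM and 904, 964 and 858 at 20 µM. These values did not overlap, and the difference on log2 raw intensity was -0.14 (SE 0.051, unadjusted p of 0.018 in limma), or -0.15 without replicate 2 of 20 µM. This call was lost without replicate 1 of 20 µM, on net intensity and with the authors' table. Of the PCDHGA8 probes, 1 was higher at 20 µM by 0.14 (unadjusted p = 0.062 in limma), and by 0.059 without replicate 2, where it read 2197 against 767 to 1209 elsewhere. The spot listed directly after it, of YDJC, read 1546 on that array and 3354 to 6149 on the others.

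**Figure D3:**
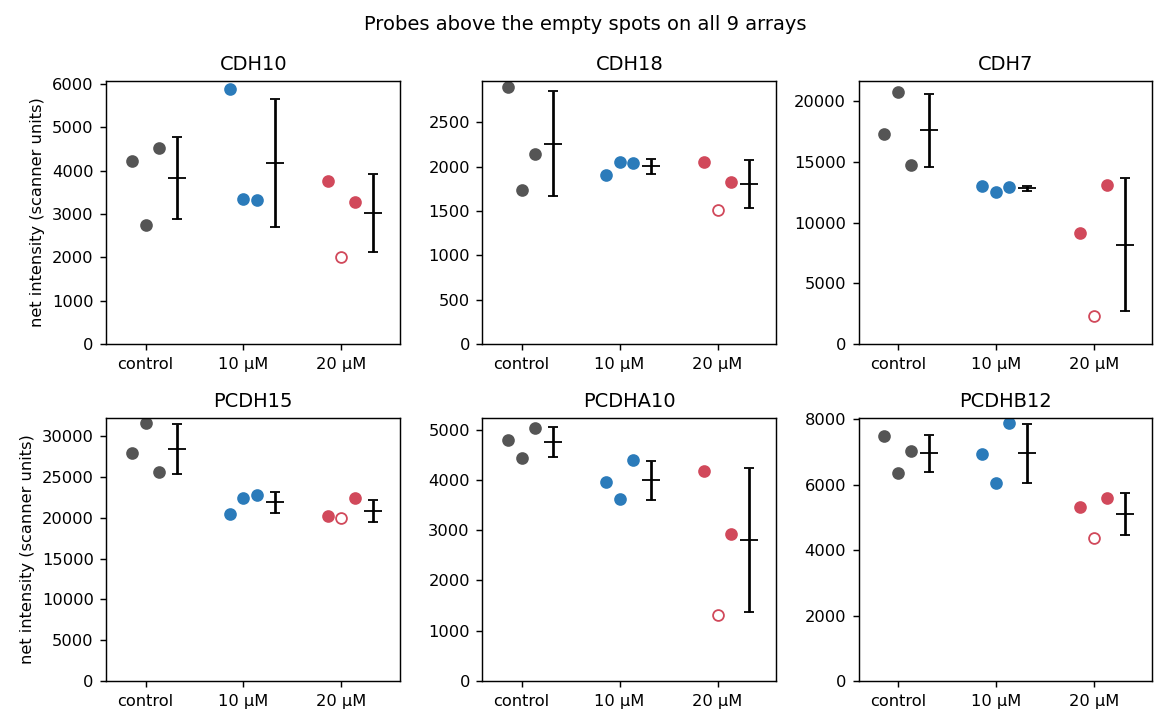
Net intensity in scanner units of the 6 probes above the empty spots on all 9 arrays, with each array as a point (replicates 1 to 3 from left to right, replicate 2 of 20 µM open) and the group mean ± SD (n = 3) beside it. CDH7, PCDH15 and PCDHA10 were lower on all treated arrays than on the control arrays, PCDHB12 at 20 µM only, and CDH10 and CDH18 overlapped.

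Lower net intensity without overlap was common among bright probes of any gene. Of the 799 named probes above the bound on all 9 arrays, 13.8% were lower at 10 µM than on every control array and 42.2% at 20 µM, against 3 of the 6 here at 10 µM (CDH7, PCDH15 and PCDHA10) and 4 of 6 at 20 µM (those and PCDHB12). These shares are of net intensity as the scanner gave it, with no scaling between arrays, and 6 probes are few. Among the 1964 probes brighter than the empty spots by their mean, 11.3% had an unadjusted p under 0.05 on normalized log2 raw intensity at 20 µM, and 3 of the 13 cadherin and protocadherin probes did. That mean was taken over all 9 arrays, replicate 2 of 20 µM included. The 13 include PCDH12 and PCDHGA11, which were above the bound on 1 and 3 arrays only.

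No cadherin or protocadherin probe passed an adjusted p of 0.05 in limma in any comparison, nor did any of the 25378 probes, so the share called was 0% at 10 µM against control, 0% at 20 µM against control and 0% at 20 µM against 10 µM. At an unadjusted p under 0.05, 3 of 103 probes (2.91%) differed at 10 µM, all lower, those of CDH16, PCDHB13 and PCDHGA1, against 0.78% of all named probes. At 20 µM against control the count was also 3, all lower, those of CDH7, PCDH1 and PCDHA10, against 2.34% of all. At 20 µM against 10 µM it was 7 (6.8%), against 3.37% of all: PCDHB13 and PCDHGA1 were higher and CDH7, PCDHA10, PCDHB12, PCDHGB7 and PCDHGC4 lower. Among these 7 the unadjusted p of PCDHA10 alone stayed under 0.05 with any 1 array left out. Of the probes named here, CDH16, PCDHB13, PCDHGA1, PCDHGB7 and PCDHGC4 were below the bound on all 9 arrays. The 3 comparisons share arrays, since both doses were set against the same controls.

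Groups did not overlap on normalized log2 raw intensity for 11 probes (10.7%) at 10 µM, 4 higher and 7 lower, against 5.24% of all named probes. For 20 µM against control the count was 9 (8.74%), 3 higher and 6 lower, against 5.54% of all, and for 20 µM against 10 µM it was 8 (7.77%), 2 higher and 6 lower, against 7.96% of all. The median difference over the 103 probes was 0.0055 at 10 µM, with 58 higher and 45 lower, and -0.0018 at 20 µM, with 49 higher and 54 lower. Over all named probes the medians were 0.0017 and -0.00047. Family medians ran from -0.017 in the PCDHA cluster to 0.038 in type I cadherins at 10 µM, and from -0.033 in type II cadherins to 0.0067 in the PCDHG cluster at 20 µM.

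**Figure D4:**
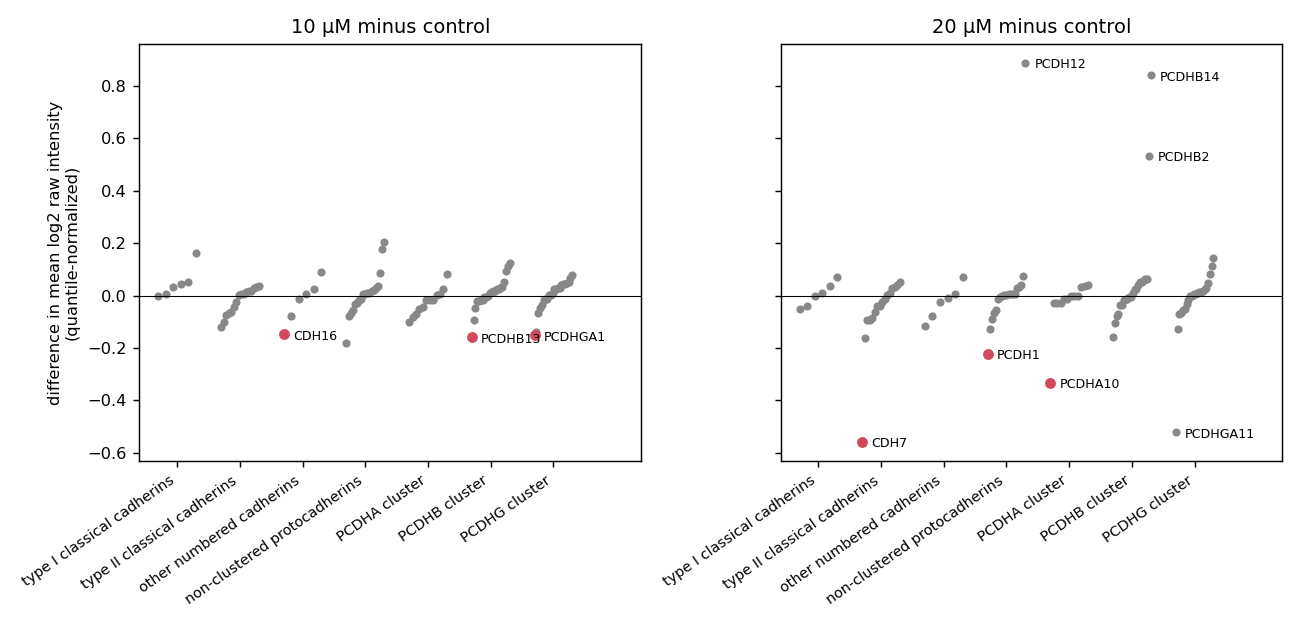
Difference in mean log2 raw intensity (quantile-normalized) of each of the 103 probes, by family, for 10 µM minus control and 20 µM minus control. Red points have an unadjusted p under 0.05 in limma (3 in each panel, all lower). PCDH12, PCDHB14, PCDHB2 and PCDHGA11 are labelled for differences beyond 0.5, and each of these probes was raised on 1 or 2 arrays.

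Probes for the same gene did not always stand above the empty spots together. Of the 16 genes with more than 1 probe (34 probes), CDH7, CDH18 and PCDH15 had 1 probe above the bound on all arrays and another above it on none, and 6 genes had all probes below it on every array. For CDH7 the second probe read 970, 909 and 945 in control cells and 1096, 921 and 788 at 20 µM, where it differed by -0.025. The lower values of the bright CDH7 probe at 20 µM were thus not seen with the other one, which did not measure the gene above the empty spots. Signs were opposite among the probes of 7 genes at 10 µM and of 9 at 20 µM. Each of the 16 genes had a probe below the bound on every array, so these signs do not compare measured levels. First exons of clustered protocadherins resemble each other, and how far a probe of 1 gene also binds transcripts of its neighbors was not tested.

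Genes that act with cadherins were read the same way. Every p given for them is unadjusted, since the adjusted p was 0.9999 against control and 0.993 between the doses for each probe named. Their differences at 20 µM include replicate 2 of that dose, and how far they rest on that array was not tested. Of 18 probes for cytoplasmic partners, those of CTNNA2, CTNND2 and JUP were above the bound on all arrays, and 0 passed an unadjusted p of 0.05 in limma at 10 µM. At 20 µM against control 2 had lower values, CTNNA2 (α-catenin of neurons) by -0.25 (unadjusted p = 9.6e-04 in limma) and JUP (plakoglobin) by -0.27 (unadjusted p = 0.031 in limma), against 2.34% of all named probes and 11.3% of those brighter than the empty spots. Between the doses CTNNA2, JUP and 1 of the MLLT4 probes were lower, by -0.17, -0.25 and -0.12, against 3.37% of all.

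Of 16 probes for transcriptional repressors of E-cadherin, SNAI3 was above the bound on all arrays and differed by -0.15 (SE 0.062, unadjusted p = 0.034 in limma) at 10 µM, where 0.78% of all named probes passed. At 20 µM SNAI3 differed by -0.18 (unadjusted p = 0.015 in limma) and SNAI1, not above the bound on all arrays, by -0.17 (unadjusted p = 0.031 in limma). In that comparison 2.34% of all named probes passed, and 11.3% of those brighter than the empty spots. Between the doses 1 of the TWIST2 probes, below the bound on all arrays, differed by -0.17 (unadjusted p = 0.024 in limma), where 3.37% of all named probes passed. Of 12 probes for desmosomal cadherins 0 were above the bound on all arrays and 0 passed at either dose against control. Between the doses 1 probe each of DSG1 and DSG3 was higher at 20 µM, by 0.19 and 0.13 (unadjusted p = 0.049 and 0.044 in limma). Both were below the bound on all arrays, and the share over all named probes was again 3.37%.

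Of 27 probes for atypical cadherins FAT3 was above the bound on all arrays, 0 passed at 10 µM (DCHS2, -0.10, had the lowest p), and 1 of 3 FAT4 probes differed by -0.13 at 20 µM (unadjusted p = 0.043 in limma). Of 10 probes for nectins, 1 of 3 PVR probes was above the bound on all arrays and differed by -0.22 at 20 µM (unadjusted p = 0.042 in limma). At 10 µM 0 passed, and PVRL1 (-0.069) had the lowest p. Over all named probes 2.34% passed at 20 µM against control, and 11.3% of those brighter than the empty spots.

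Few probes for markers of cell types were above the bound on all arrays. Of 10 probes for epithelial markers, keratins and EPCAM included, 0 were above the bound on all arrays and 7 on none, so the epithelial origin of HK-1 could not be checked on these arrays, and KRT18 had the lowest p at 10 µM (-0.098). Their net intensity in units of the bound, summed over the probes, was 7.73 to 8.41 in control cells, 7.85 to 8.17 at 10 µM and 6.22 to 8.15 at 20 µM. Each array was divided by its own bound. That bound was 1823 on replicate 1 of 20 µM and 1266 to 1519 in control cells and at 10 µM. Its part in these sums was not tested. For 11 fibroblast probes, of which PDGFRB was above the bound on all arrays, these sums were 11.3 to 13.3, 10.1 to 12.2 and 8.34 to 11.6. Of these, THY1 differed by -0.13 at 20 µM (unadjusted p = 0.028, adjusted p = 0.9999 in limma), where 2.34% of all named probes passed. How far the THY1 difference at 20 µM rests on replicate 2 of that dose was not tested. THY1 also had the lowest p of these probes at 10 µM (-0.10). Of 5 endothelial probes (sums of 4.56 to 5.36, 4.68 to 4.85 and 3.53 to 4.72) and 6 leukocyte probes (4.77 to 4.93, 4.17 to 4.59 and 3.90 to 4.59), 0 were above the bound on all arrays, and TEK (-0.059) and PTPRC (-0.15) had the lowest p at 10 µM. TEK was above the bound on 8 arrays. On none were 2 of the endothelial and 6 of the leukocyte probes above it. The part of these markers in the cadherin differences was not tested.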

How the data were processed

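Each of the 9 files deposited by the authors holds, per spot, the scanner's raw, local background and net intensity of a OneArray Human v5 array, not normalized. The table of processed values from the authors was used as a score, in an alternative only, because the sources used here do not give its scaling or centring. Its direction was taken from the labels, and all its columns belonged to the 9 samples.

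Raw intensity was log2-transformed, centred on array medians and quantile-normalized over 29187 gene probes, following the log2, median and quantile steps of the study's methods. One model of all 9 arrays with a mean per group was fitted by limma 3.58.1 (R 4.3.3), with Benjamini-Hochberg adjustment over 25378 named probes. Each gene probe had 1 spot per array, and empty and control spots were left out. The steps were tested on simulated data. Promoter letters came from the RefSeq table for GRCh38.p14. Figures were drawn with matplotlib.

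Named probes are, per comparison, the 3 higher and 3 lower of lowest unadjusted p, every probe above the empty spots on all arrays, and those of CDH1, CDH2 and CDH3. Further probes were named after their values were seen, where a count, an array or a second probe turned on them. Members, lists and this rule were chosen with earlier results of these data known.

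Array headers place arrays of 1 replicate number in 1 scan batch. Deviations from group means of same-numbered arrays correlated at 0.137 to 0.225 between control and 10 µM, -0.331 to -0.230 between control and 20 µM, and -0.110 to -0.0738 between the doses. Alternatives were median centring alone, cyclic loess, normexp with an offset of 50, net intensity, the authors' table, bright probes only, the replicate block, the methods' t-test, other bounds, and leaving out each array.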

Additional observations from a re-analysis of the deposited data

How the results depend on the processing

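No cadherin or protocadherin probe passed an adjusted p of 0.05 under any alternative run. At an unadjusted p under 0.05 the main counts were 3 for 10 µM against control, 3 for 20 µM against control and 7 for 20 µM against 10 µM. The shares over all named probes were 0.78%, 2.34% and 3.37%. In that order the counts were 1, 5 and 5 with median centring alone, against 0.355%, 2.3% and 2.9% of all. With cyclic loess they were 2, 1 and 3, against 0.394%, 1.34% and 2.53%. Normexp gave 3, 7 and 8, against 4.07%, 5.25% and 5.39%. Net intensity gave 3, 8 and 7, against 3.48%, 5.24% and 5.23%. The authors' table gave 3, 8 and 6, against 3.63%, 5.61% and 5.32%. The counts were 0, 3 and 2 among the 13 probes brighter than the empty spots by their mean (fewer probes entered). Over the 1964 such probes the shares were 0.713%, 11.3% and 10.1%. With the methods' t-test the counts were 5, 2 and 7, against 2.27%, 2.06% and 3.19% of all named probes. With the replicate number as a block they were 4, 4 and 6, against 0.512%, 2.13% and 2.7% of all. The block added PCDH15 at 10 µM and PCDHGA11 at 20 µM and lost PCDHB13 between the doses. Leaving out 1 array at a time gave 3 to 6, 2 to 11 and 3 to 12. Over all named probes these shares ran from 0.437% to 2.69%, 1.32% to 5.49% and 2.84% to 6.44%. Without replicate 3 of 20 µM there were 11 and 12 in the comparisons of 20 µM, against 5.49% and 6.44% of all. Without replicate 2 of 20 µM there were 5 and 8, against 3.98% and 5.47%. Probes above the bound on all arrays numbered 6, 4 with the 99th percentile, 3 with raw intensity, and 6 to 7 with an array left out. What caused these shifts was not tested.

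Of 254 values of 34 named differences, 184 kept their direction and their side of an unadjusted p of 0.05, 37 lost the call, 9 gained it and 24 reversed. At 10 µM CDH1 became -0.0062 (loess), -0.0090 (normexp) and -0.075 (table), CDH10 -0.023 and PCDHB12 -0.0094 (both median centring), CDH2 0.0034 (median centring), 0.0031 (loess), 0.11 (normexp), 0.040 (net) and 0.053 (table), and CDH7 -0.15 (median centring), -0.014 (loess), -0.26 (normexp), -0.24 (net) and -0.90 (table). At 20 µM CDH1 became -0.23 (normexp), -0.079 (net) and -0.32 (table), and by loess CDH10 became 0.0076, CDH18 0.013 and PCDHB12 0.044. Between the doses PCDHB13 became -0.095 (normexp), -0.055 (net) and -0.16 (table). Table values are in its own units. With 1 array left out, ranges that crossed 0 were, at 10 µM, -0.026 to 0.039 for CDH1, -0.063 to 0.083 for CDH10, -0.011 to 0.0088 for CDH2 and -0.056 to 0.095 for CDH7, and, at 20 µM, -0.015 to 0.069 for CDH1, -0.14 to 0.055 for CDH18, -0.035 to 0.17 for CDH3 and -0.0009 to 1.35 for PCDH12.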
